A study of Mus musculus with 12 samples.

Results

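Transcripts of 9 genes of steroid and vitamin D signalling were followed in libraries of purified bone endothelial cells (BECs) from mice of both sexes at 2 ages. The genes were the oestrogen receptors Esr1, Esr2 and Gper1, the progesterone receptor Pgr, the corticosteroid receptors Nr3c1 and Nr3c2, the vitamin D receptor Vdr, and the oestrogen-metabolising enzymes Cyp1b1 and Cyp19a1. They were chosen by name, with earlier results of these data known. Each was matched by symbol to 1 Ensembl ID among the 37620 genes of the count table. The mice were of strain C57/Bl6, with no allele or treatment named in the labels. The groups were females at 2 weeks, males at 2 weeks, females at 65 weeks and males at 65 weeks, with 3 libraries each and 12 in all. The labels place the cells in the tibia and state that they were purified by expression of endomucin, a surface sialomucin of bone capillaries and veins. The study kept the best samples of each set by RNA quality for sequencing. The labels do not say whether replicates came from separate animals, so that p-values measure the spread between libraries, which may be technical.

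Esr1 (ERα), Esr2 (ERβ), Pgr, Nr3c1 (the glucocorticoid receptor), Nr3c2 (the mineralocorticoid receptor) and Vdr are nuclear receptors, transcription factors that bind DNA as dimers once their hormone is bound. Gper1 is a membrane receptor of the G-protein coupled family that responds to oestradiol. Cyp19a1 (aromatase) makes oestrogens from androgens, and Cyp1b1 hydroxylates oestradiol as well as fatty acids and retinoids. Pgr and Greb1 are classical genes induced by ERα in the reproductive tract, and oestrogen is known to act on bone mass and on bone vessels in both sexes.

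Library totals were 35012947 to 38289171 counts in 2-week females, 36335541 to 44569600 in 2-week males, 29049031 to 34088694 in 65-week females and 26044743 to 27323682 in 65-week males. Levels are given as CPM, counts scaled by the library total. The detection floor was set at 3 counts, a mean of 0.0819 CPM in 2-week females, 0.0739 in 2-week males, 0.0979 in 65-week females and 0.112 in 65-week males. It covers counting error only. Emcn, which encodes endomucin, measured 147 ± 32.9 CPM in young females and 197 ± 38.0 in young males, against 5.0 ± 2.10 and 5.64 ± 0.971 CPM at 65 weeks (SD, n = 3 each). The summed level of 20 endothelial markers ran from 4013 to 7237 CPM over the libraries of 2 weeks and from 338 to 471 CPM over those of 65 weeks, with no marker at 0 in any group. Libraries of both ages thus held transcripts of these markers, at summed levels 15.5-fold apart. The sum does not describe each marker. Between ages in males, Cdh5 fell by 5.74 and Kdr by 5.35 on the log2 scale, but Pecam1 by 3.24 and Erg by 1.60. At 65 weeks neutrophil markers summed to 12100 to 26330 CPM, B cell markers to 7310 to 19040 CPM and erythroid markers to 28010 to 43110 CPM. The 2-week libraries were mixed too. Their erythroid markers summed to 28670 to 52840 CPM, osteoblast markers to 5711 to 8535 CPM and neutrophil markers to 4077 to 6406 CPM. The levels below are therefore those of whole libraries and not of endothelial cells alone. Male 65-week replicate 3 stood apart from the other 2 libraries of its group. It held 117 counts of Xist, which is transcribed from the inactive X chromosome, against 3 and 0 counts in replicates 1 and 2, or 3.35% of the mean over the females of 65 weeks. It was also the highest of its group for 7 of the 7 genes that were detected there, against 46.7% of 17879 genes overall. Results that rest on it are given with and without it.

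Sequences upstream of the genes that changed most between the ages are shown to give their promoter context. They are the RefSeq windows from 250 bases before to 50 after the gene start, 300 bases each, on build GRCm38.p6 and read 5′ to 3′ on the strand of the gene. Capitals mark matches on either strand to GCGTG (the core recognised by the aryl hydrocarbon receptor), TATAAA (the TATA box) and GGGCGG (the GC box of Sp factors).
Vdr, chr15:97908247-97908546, minus strand: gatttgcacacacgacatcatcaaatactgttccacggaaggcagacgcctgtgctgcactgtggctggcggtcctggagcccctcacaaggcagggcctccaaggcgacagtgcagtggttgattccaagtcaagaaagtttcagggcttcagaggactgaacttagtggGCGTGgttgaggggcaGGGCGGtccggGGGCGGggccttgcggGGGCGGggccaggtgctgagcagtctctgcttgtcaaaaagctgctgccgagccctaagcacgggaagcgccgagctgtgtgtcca
Cyp1b1, chr17:79715012-79715311, minus strand: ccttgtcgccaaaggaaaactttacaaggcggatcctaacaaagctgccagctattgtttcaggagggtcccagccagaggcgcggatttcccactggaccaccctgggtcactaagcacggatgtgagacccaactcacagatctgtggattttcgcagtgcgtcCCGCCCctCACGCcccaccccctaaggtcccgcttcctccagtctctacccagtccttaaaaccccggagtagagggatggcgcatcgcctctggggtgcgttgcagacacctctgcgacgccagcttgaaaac
Gper1, chr5:139422929-139423228, plus strand: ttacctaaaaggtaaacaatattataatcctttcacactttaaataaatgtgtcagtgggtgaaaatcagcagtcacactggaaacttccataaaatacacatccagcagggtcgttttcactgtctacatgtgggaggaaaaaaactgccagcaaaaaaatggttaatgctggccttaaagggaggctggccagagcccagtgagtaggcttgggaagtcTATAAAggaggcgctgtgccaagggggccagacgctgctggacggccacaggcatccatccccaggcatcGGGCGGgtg
Pgr, chr9:8899583-8899882, plus strand: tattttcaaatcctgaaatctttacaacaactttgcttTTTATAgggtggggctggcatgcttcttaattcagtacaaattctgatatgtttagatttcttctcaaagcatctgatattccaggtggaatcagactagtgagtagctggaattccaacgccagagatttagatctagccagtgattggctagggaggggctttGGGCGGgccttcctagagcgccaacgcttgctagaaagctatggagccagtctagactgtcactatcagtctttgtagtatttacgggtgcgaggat
The Vdr window held 1 match to GCGTG and 3 to GGGCGG, and the Cyp1b1 window 1 match to each. The Gper1 and Pgr windows each held 1 match to TATAAA and 1 to GGGCGG. In the Pgr window TATAAA lay on the opposite strand and near the upstream end, far from the gene start. In the Gper1 window GGGCGG lay after the gene start. These are matches of letters, and whether any of them works as a promoter element was not tested. Such matches are common, since GCGTG lies in 32.4%, TATAAA in 13.6% and GGGCGG in 35.7% of the 32851 windows of the same length. None of the 4 windows held the palindromic consensus of the oestrogen response element (0.07% of windows) or of the glucocorticoid response element (0.475%), or the direct repeat with a spacer of 3 bases bound by Vdr (0.006%). Nor did they hold the single site AGGTCA, which the vitamin D repeat contains (16.3%). The Vdr and Cyp1b1 windows held 15 and 16 CpG dinucleotides and the Gper1 and Pgr windows 6 each, beside a median of 7. Only these letters in these windows were searched.

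The level of each transcript in these libraries was described first. Esr1 (ENSMUSG00000019768, GRCm39 chromosome 10, 4561593 to 4955626, plus strand) held 522, 699 and 583 counts in 2-week females and 868, 795 and 649 in 2-week males. In CPM this was 16.5 ± 3.07 and 18.8 ± 0.833 (SD, n = 3 each). At 65 weeks it held 230, 239 and 228 counts in females (7.57 ± 0.488 CPM). Males of that age held 131, 117 and 267 counts (6.46 ± 3.29 CPM), and the highest was replicate 3. All 6 libraries of 65 weeks lay below all 6 of 2 weeks.

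Esr2 (ENSMUSG00000021055, chromosome 12, 76167193 to 76224033, minus strand) was at the limit of what these libraries can show. It held 3, 2 and 3 counts in 2-week females, 4, 3 and 4 in 2-week males and 0 in the 6 libraries of 65 weeks. A transcript at 0 counts may lie at up to 0.0979 CPM for females of 65 weeks and 0.112 CPM for males. The mean level of 2 weeks was 0.0724 CPM in females and 0.0906 CPM in males, below both limits, so that no fold between the ages can be given.

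Gper1 (ENSMUSG00000053647, chromosome 5, 139408898 to 139414146, plus strand) lies within the span of Chlsn, a gene on the opposite strand, without sharing exon sequence with it. It held 136, 176 and 128 counts in 2-week females (4.02 ± 0.887 CPM) and 253, 154 and 209 in 2-week males (5.04 ± 1.17 CPM). At 65 weeks 1, 4 and 8 counts remained in females (0.142 ± 0.121 CPM) and 0, 1 and 4 in males (0.0635 ± 0.0802 CPM). The 65-week levels were near the floor in both sexes, and every one lay far below the lowest 2-week level of 3.34 CPM.

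Pgr (ENSMUSG00000031870, chromosome 9, 8899830 to 8968612, plus strand) had the opposite course. It had 0 counts in all 6 libraries of 2 weeks, which allows a mean of up to 0.0819 CPM for females and 0.0739 CPM for males. At 65 weeks it held 38, 17 and 31 counts in females (0.955 ± 0.414 CPM). In males of 65 weeks it held 2, 3 and 25 counts (0.381 ± 0.501 CPM). Replicate 3 alone reached the range of the female libraries, at 0.960 CPM, while the other 2 male libraries lay at 0.0732 and 0.111 CPM, at or below the floor.

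Nr3c1 (ENSMUSG00000024431, chromosome 18, 39543598 to 39652474, minus strand) was abundant in every library. It held 3891, 3707 and 3596 counts in 2-week females (102 ± 6.93 CPM) and 5350, 4534 and 3768 in 2-week males (111 ± 8.39 CPM). The 65-week libraries held 4408, 5376 and 4154 counts in females (150.4 ± 8.07 CPM) and 3319, 3770 and 4180 in males (140.5 ± 19.5 CPM). Each of the 65-week libraries, from 121.5 CPM upwards, lay above each of the 2-week libraries, which reached 120.0 CPM at most.

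Nr3c2 (ENSMUSG00000031618, chromosome 8, 77625576 to 77971863, plus strand) was low at both ages. It shares 751 nt of exon with the antisense gene Gm10649, which held at most 3 counts in any library. Exons on the opposite strand also overlap Nr3c1 (1165 nt, Gm58395), Cyp19a1 (274 nt, Gm68962), Vdr (124 nt, Gm62301) and Pgr (99 nt, Gm32014), and these genes have no line in the count table. Since strand use is not stated, reads of such partners cannot be told from those of the receptors. Nr3c2 counts were 185, 174 and 152 in 2-week females (4.66 ± 0.598 CPM) and 298, 231 and 194 in 2-week males (5.85 ± 0.729 CPM). They were 159, 119 and 97 in 65-week females (4.09 ± 1.2 CPM) and 121, 66 and 149 in 65-week males (4.20 ± 1.65 CPM). The ages overlapped in both sexes, whereas all 3 male libraries of 2 weeks lay above all 3 female ones.

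Vdr (ENSMUSG00000022479, chromosome 15, 97752306 to 97808511, minus strand) held 1716, 2260 and 1864 counts in 2-week females (53.3 ± 9.77 CPM) and 2254, 2038 and 1992 in 2-week males (51.4 ± 3.10 CPM). At 65 weeks it held 211, 195 and 124 counts in females (5.74 ± 1.52 CPM) and 109, 71 and 150 in males (4.13 ± 1.57 CPM). The highest 65-week library, at 7.26 CPM, was far below the lowest 2-week library, at 46.7 CPM.

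Cyp1b1 (ENSMUSG00000024087, chromosome 17, 80008966 to 80022532, minus strand) held 4759, 6316 and 4152 counts in 2-week females (139.5 ± 37.0 CPM) and 8297, 6539 and 4951 in 2-week males (159.6 ± 25.1 CPM). It held 303, 585 and 670 counts in 65-week females (16.8 ± 6.22 CPM) and 565, 368 and 698 in 65-week males (20.4 ± 6.59 CPM). Cyp19a1 (ENSMUSG00000032274, chromosome 9, 54072601 to 54175394, minus strand) had 2 counts in 2-week male replicate 1 and 0 in each of the other libraries. Transcription of aromatase was thus not detectable at this depth in either sex or age.

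**Figure D1:**
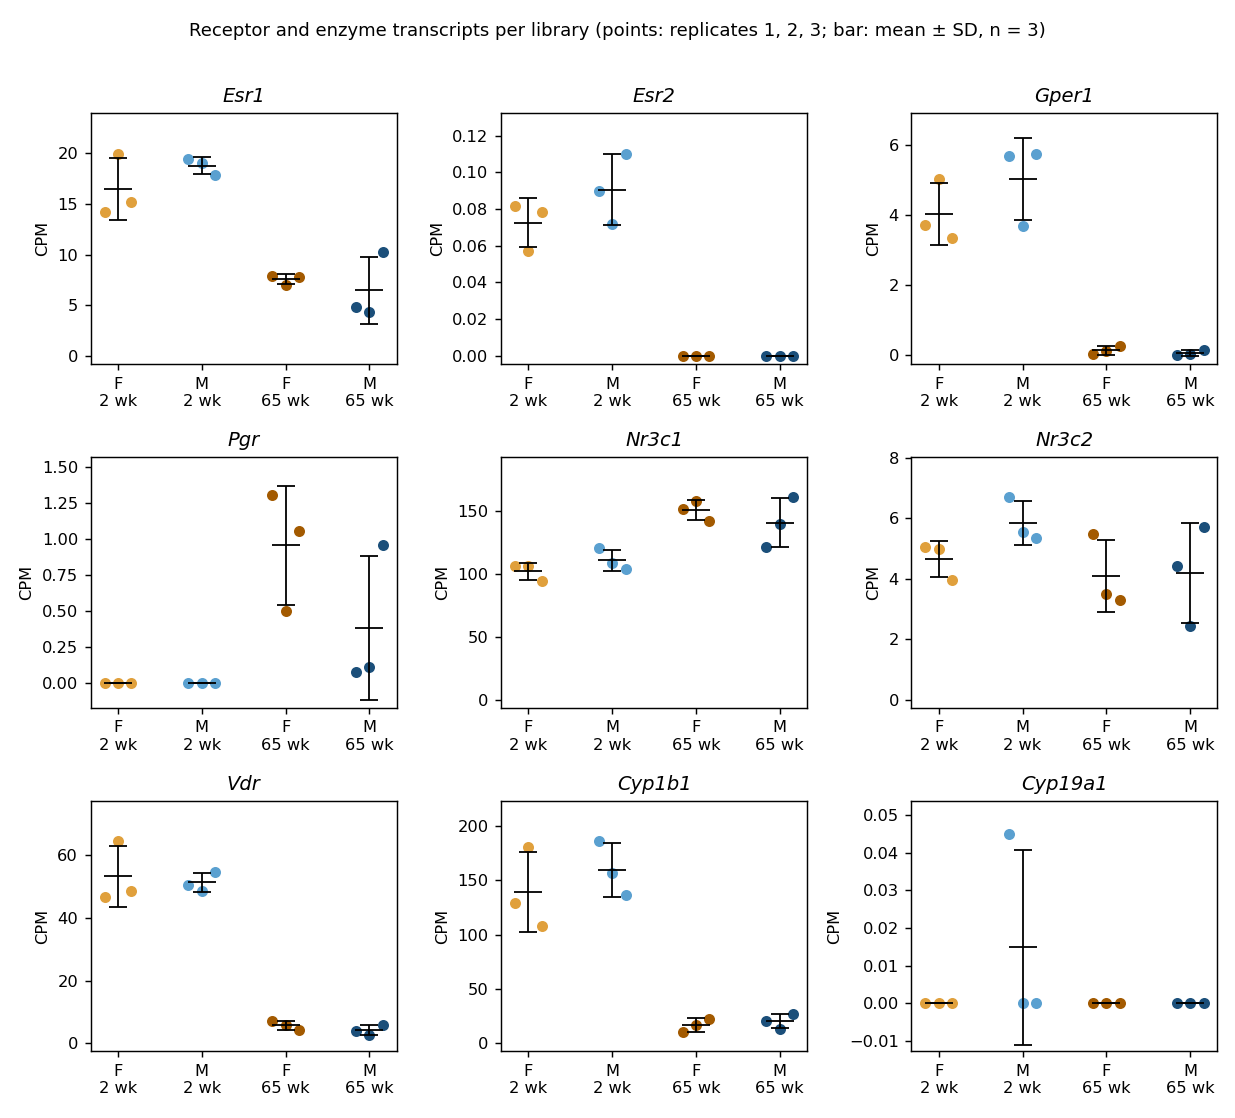
Level of each of the 9 genes in CPM (vertical axes, linear, scaled per gene) in females (F) and males (M) at 2 and 65 weeks (wk). Points are the 3 libraries of a group in the order of replicates 1 to 3, and bars give the mean ± SD. Esr1, Gper1, Vdr and Cyp1b1 stood lower at 65 weeks and Nr3c1 higher, without overlap, while Pgr was at 0 at 2 weeks and Cyp19a1 had 2 counts in 1 library.

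To compare levels between genes, CPM was divided by the length of the merged exons in kilobases. At 2 weeks Cyp1b1 came first, at 19.3 ± 5.11 CPM per kb in females and 22.1 ± 3.47 in males. Nr3c1 followed at 12.9 ± 0.879 and 14.1 ± 1.07 CPM per kb, and Vdr at 9.29 ± 1.70 and 8.95 ± 0.541. None of these 3 overlapped its neighbour in that order. Esr1 (1.18 ± 0.220 and 1.35 ± 0.0597 CPM per kb) and Gper1 (1.17 ± 0.258 and 1.46 ± 0.340) overlapped each other in both sexes. Nr3c2 lay below both, at 0.545 ± 0.0699 and 0.684 ± 0.0853 CPM per kb, followed by Esr2 at 0.0215 and 0.0269.

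At 65 weeks Nr3c1 came first, at 19.1 ± 1.03 CPM per kb in females and 17.8 ± 2.48 in males. It was far from the next gene, Cyp1b1, at 2.32 ± 0.860 and 2.82 ± 0.911 CPM per kb. Vdr followed in females at 0.999 ± 0.264 CPM per kb, above Esr1 (0.542 ± 0.0350) and Nr3c2 (0.478 ± 0.140), which overlapped each other. In males Vdr (0.719 ± 0.273), Nr3c2 (0.491 ± 0.193) and Esr1 (0.463 ± 0.236 CPM per kb) each overlapped the next. With the length of the Ensembl canonical transcript in place of all exons, Esr1 moved above Gper1 in 2-week males and above Vdr and Nr3c2 in 65-week males.

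Whether the receptors changed with age was tested within each sex. In females 6 of the 7 genes that passed the filter on low counts changed between 2 and 65 weeks, 2 upwards and 4 downwards, at an adjusted p under 0.05 (edgeR). Of all 15120 genes tested 59.7% were called, 30.2% higher and 29.5% lower. In males 5 of 6 tested genes changed, 1 higher and 4 lower, beside 55.5% of 14959 genes (27% higher and 28.5% lower). Esr2 and Cyp19a1 were not tested in either sex, nor Pgr in males, because their counts were too low. Gper1 passed the filter only through the 2-week libraries and Pgr only through the 65-week females, so that a difference of these genes was partly set by the filter.

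Among the oestrogen receptors, Esr1 fell by 0.98 in females in log2 units (SE 0.147, edgeR adjusted p = 0.000675) and by 1.44 in males (SE 0.292, edgeR adjusted p = 0.00414). Gper1 fell by 4.66 in females (SE 0.491, 95% interval -5.80 to -3.53, edgeR adjusted p = 9.96e-05), where 13 counts in all were left at 65 weeks. In males 5 counts were left, a mean below the floor, so that Gper1 was at least 45-fold lower as a bound (edgeR adjusted p = 9.79e-05). Without male 65-week replicate 3, Esr1 fell by 1.92 in males, and 1 Gper1 count was left in the other 2 libraries. Gper1 passed the filter only through the 2-week libraries, so that its p-values are no independent support.

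Pgr was at least 11.7-fold higher in females of 65 weeks than in those of 2 weeks, as a bound against the floor of 3 counts per library. It was counted in 3 of 3 libraries of 65 weeks (edgeR adjusted p = 0.000915). Pgr passed the filter on low counts only through these libraries, so that its p-value is no independent support. In males the same bound was 5.16-fold with replicate 3. Without it 5 counts in all remained, a mean of 0.0922 CPM below the floor of 0.111, so that no fold can be given.

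Of the corticosteroid receptors, Nr3c1 rose by 0.70 log2 units in females (SE 0.0821, edgeR adjusted p = 0.000184) and by 0.45 in males (SE 0.111, edgeR adjusted p = 0.00974). The call in males was lost without male 2-week replicate 3, at 0.39 (edgeR adjusted p = 0.05005, just above the threshold). Nr3c2 did not pass the test. Its 95% interval was -0.61 to 0.50 log2 units in females and -1.06 to 0.32 in males, so that changes of these sizes could not be told from none.

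Vdr fell by 3.08 log2 units in females (SE 0.203, edgeR adjusted p = 1.03e-05), and in males it fell by 3.53 (SE 0.242, edgeR adjusted p = 1.7e-05). Cyp1b1 fell by 2.91 in females (SE 0.290, edgeR adjusted p = 7.37e-05) and by 2.86 in males (SE 0.238, edgeR adjusted p = 4.34e-05). As a ratio of mean CPM, Vdr was 9.29-fold and Cyp1b1 8.29-fold lower in 65-week than in 2-week females. In males these ratios were 12.5-fold and 7.84-fold. For comparison within the same fits, Emcn fell by 4.73 in females (SE 0.317, edgeR adjusted p = 1.1e-05) and by 5.01 in males (SE 0.210, edgeR adjusted p = 1.81e-06), more than Esr1, Vdr or Cyp1b1 by estimate. Without a test, the ages did not overlap for 6 of the 7 tested members in females and 5 of the 6 in males, beside 69.2% and 65.4% of all tested genes.

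**Figure D2:**
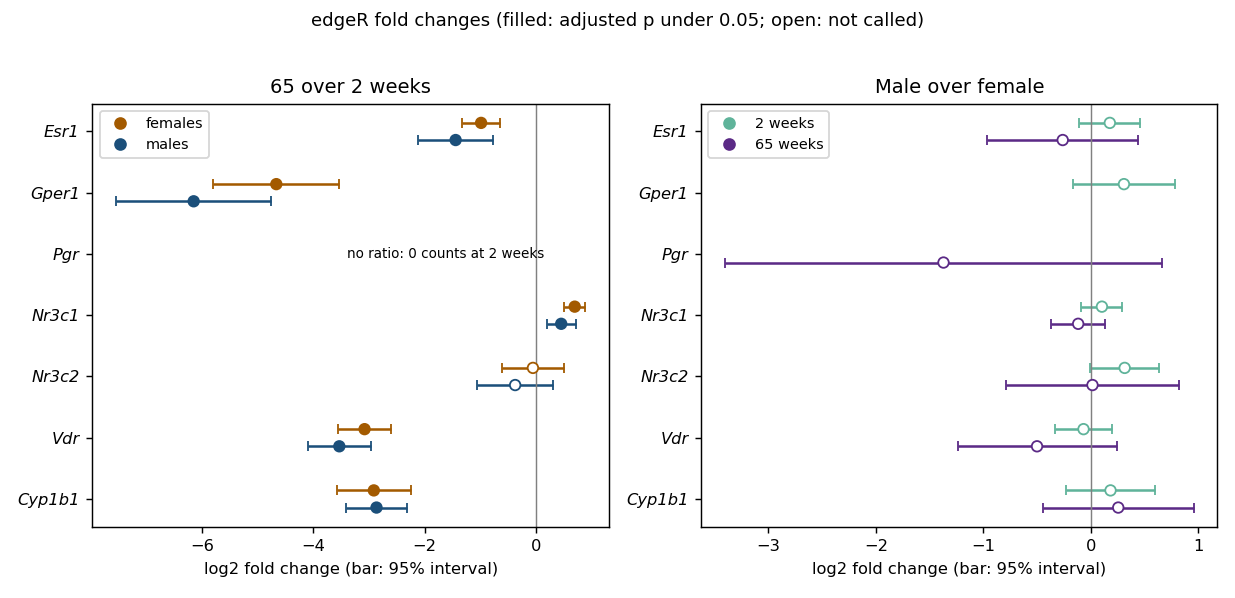
Log2 fold changes between ages (left) and between sexes (right) for the members that passed the filter on low counts, from edgeR, with 95% intervals as bars. Filled points passed the adjusted threshold and open points did not. Between ages Esr1, Gper1, Vdr and Cyp1b1 fell and Nr3c1 rose in both sexes, and no member passed between the sexes; Pgr has no ratio between ages because it had 0 counts at 2 weeks, and the fitted value of Gper1 in males rests on a mean below the floor and is not a bound.

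The cell types whose markers moved with age were listed beside these changes, because fewer cells of a type and less RNA per cell cannot be told apart in bulk libraries. Of 13 marker lists, 7 were lower in all 65-week libraries than in all 2-week libraries. Endothelial markers were 15.5-fold, osteoblast markers 32.4-fold, chondrocyte markers 54.1-fold, smooth muscle and pericyte markers 10.7-fold, megakaryocyte markers 8.43-fold, reticular stromal and adipocyte markers 5.68-fold and osteoclast markers 2.20-fold lower. Osteoblast markers summed to 5711 to 8535 CPM at 2 weeks and 149 to 241 at 65 weeks. Chondrocyte markers summed to 306 to 559 CPM and then 4.96 to 10.3, with 1 of 8 at 0 in each 65-week group.

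Lists of 5 blood lineages were higher in all 65-week libraries. B cell markers summed to 516 to 757.5 CPM over the 2-week libraries and 7310 to 19040 CPM over the 65-week ones. Neutrophil markers summed to 4077 to 6406 and then 12100 to 26330 CPM. Plasma cell markers were 8.0-fold, T and NK cell markers 2.06-fold and monocyte and macrophage markers 1.58-fold higher. Erythroid markers overlapped between the ages. Without the most abundant gene of each list, the plasma cell (Jchain) and monocyte lists (Lyz2) overlapped too. The B cell list went from 17.3-fold to 3.05-fold higher without Ighm. The chondrocyte list went to 20.7-fold lower without Col10a1 and the osteoclast list to 3.69-fold lower without Mmp9. The part of these shifts in the changes of the receptors was not tested. As background, Esr1 and Vdr are known to be transcribed in the osteoblast lineage too, and Nr3c1 in most cell types.

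**Figure D3:**
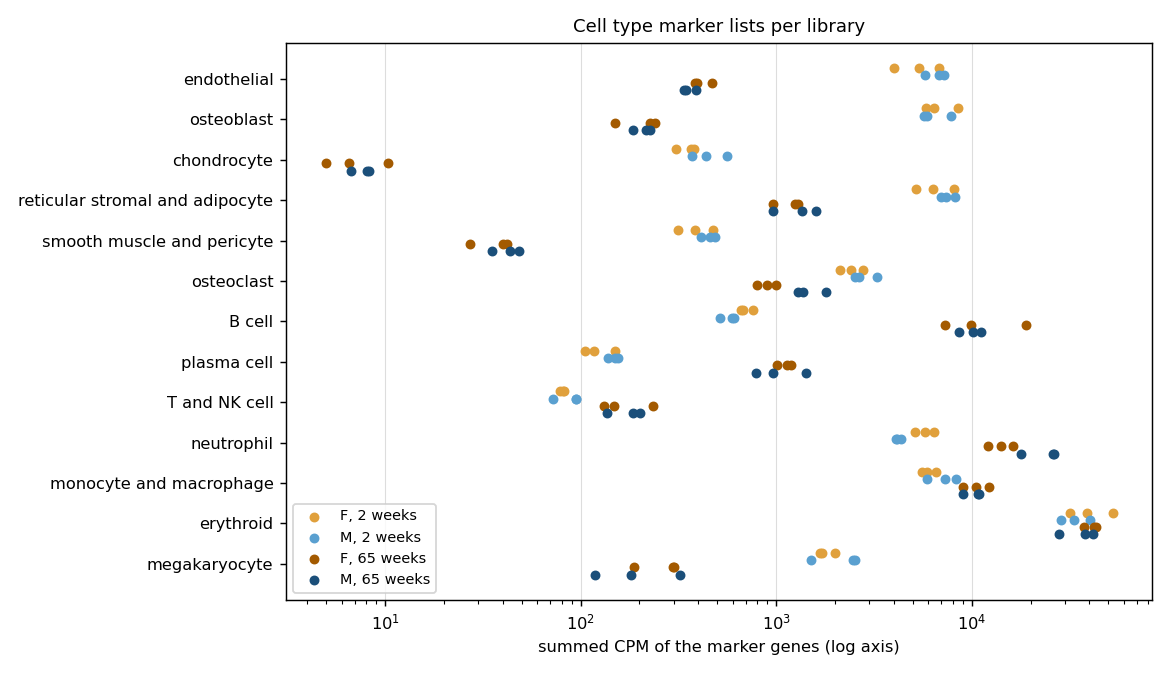
Summed CPM of the marker genes of 13 cell types (horizontal log axis) in each library, coloured by sex (F, M) and age. Endothelial, osteoblast, chondrocyte, stromal, pericyte, osteoclast and megakaryocyte lists lay lower at 65 weeks, B cell, plasma cell, T and NK cell, neutrophil and monocyte lists higher, and the erythroid list overlapped.

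Whether the receptors differed between the sexes was tested within each age. At 2 weeks 0 of 6 tested genes passed (edgeR adjusted p under 0.05), beside 0.0332% of 15081 genes, and 0 of 6 had an unadjusted p under 0.05. DESeq2 called 0 of them too. Nr3c2 came nearest, at 0.32 log2 units in favour of males (SE 0.140, 95% interval -0.01 to 0.64, edgeR adjusted p = 0.288). It was higher in 3 of 3 male libraries, and such a lack of overlap in either direction was seen for 21.7% of all tested genes. The 95% intervals of male over female were -0.11 to 0.46 for Esr1, -0.17 to 0.79 for Gper1, -0.09 to 0.30 for Nr3c1, -0.33 to 0.20 for Vdr and -0.23 to 0.60 for Cyp1b1. These intervals hold the differences that 3 libraries a group leave possible, and they are not limits of detection.

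At 65 weeks 0 of 6 tested genes passed, beside 0.042% of 14287 genes, with 0 of 6 at an unadjusted p under 0.05 and 0 called by DESeq2. The sexes overlapped for each of the 6 tested genes, whereas 15.5% of all tested genes did not overlap. Gper1, which was not tested, overlapped too, and Esr2 and Cyp19a1 were at 0 in both sexes. For 4 of the tested genes (Esr1, Pgr, Nr3c1 and Vdr) the overlap rested on male replicate 3. Without it both male libraries lay below all 3 females for these 4, beside 40.9% of all tested genes that did not overlap in either direction. This comparison was added after the values were seen, and neither count was tested against its share. The intervals were wider, at -0.96 to 0.44 for Esr1, -0.37 to 0.13 for Nr3c1, -0.79 to 0.82 for Nr3c2, -1.24 to 0.24 for Vdr and -0.45 to 0.96 for Cyp1b1. Pgr was lower in males by estimate, at -1.37 on the log2 scale (95% interval -3.41 to 0.67, edgeR adjusted p = 0.677). Without male replicate 3 the male mean lay below the floor, and Pgr was at least 8.64-fold lower in males as a bound (edgeR adjusted p = 0.0670). In that fit Pgr passed the filter only through the females, and the omitted library was the male one at the female level of Pgr. The bound and its p-value are therefore no independent support. Esr1 without that library was at -0.71 (edgeR adjusted p = 0.0889).

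The interaction of sex and age, which asks whether the age difference was unequal in the sexes, passed for 0 of 6 members (0.00635% of 15747 genes), with 0 at an unadjusted p under 0.05 and 0 called by DESeq2. Pgr could not be estimated because both 2-week groups were at 0. Without male 65-week replicate 3 Esr1 was called, and its fall with age was larger in males than in females (interaction -0.89 in log2 units, with SE 0.203 and edgeR adjusted p = 0.0359). With all libraries its interaction was -0.45 (SE 0.349, edgeR adjusted p = 0.632).

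Greb1, a cofactor and target of ERα, was singled out after its values were seen. It held 12, 28 and 23 counts in 65-week females (0.673 ± 0.226 CPM) and 0 in all 3 males of that age. The male libraries included replicate 3, in which Pgr was at the female level. Against the floor Greb1 was at least 6.01-fold higher in females, with an unadjusted edgeR p of 0.000778, and the adjusted p was 0.157. It passed in the model of all 12 libraries (edgeR adjusted p = 0.0126) and without male replicate 3 (edgeR adjusted p = 0.0413). At 2 weeks it held 1 to 3 counts in each library of either sex, a mean below the floor, so that the females of 65 weeks were at least 8.22-fold higher (edgeR adjusted p = 0.00108). In males it was too low to be tested between ages. Greb1 passed the filter on low counts only through the 65-week females, and it was chosen for its values, so that these p-values are no independent support. By counts Pgr and Greb1 were both higher in 65-week than in 2-week females, and Esr1 was lower. Whether ERα acted on either gene in these libraries was not tested.

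The surrounding pathways were described by lists of related receptors, cofactors, enzymes and response genes. Of 22 tested related nuclear receptors 8 rose and 10 fell with age in females, and of 21 in males 5 rose and 8 fell, with a median log2 change of -0.17 and -0.10 beside 0.01 for all genes in each sex. Of all tested genes 30.2% rose and 29.5% fell in females and 27% rose and 28.5% fell in males, and the counts of each list below are to be read against these shares. The 5 of 21 that rose in males were near that share. Nr2f2 (COUP-TFII), which specifies venous endothelium, fell by 3.88 log2 units in females and 3.80 in males. Nr4a1, an immediate early orphan receptor, rose by 2.72 in females and 1.65 in males, and Esrra, an orphan receptor of mitochondrial genes, by 1.03 and 0.79.

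The called chaperones and coregulators of the receptors moved in 1 direction. Of 20 tested 16 rose and 0 fell in females, and 12 rose and 0 fell in males, with median log2 changes of 0.67 and 0.62 (30.2% and 27% of all genes rose). This list holds Greb1 and Fkbp5, and both are among the 16 that rose in females. Greb1 passed the filter on low counts only through the older females, so that its call was partly set by the filter. The call of Fkbp5 in females was lost without certain single libraries, as given below. Ncoa1, a steroid receptor coactivator, rose by 1.17 and 1.01, and Ep300, a histone acetyltransferase, by 0.82 and 1.18. Among the enzymes 6 rose and 4 fell in each sex, of 17 tested in females and 16 in males. Hsd11b1, which regenerates active glucocorticoid in cells, rose by 2.01 in females (from 8.96 ± 1.22 to 32.9 ± 6.17 CPM, edgeR adjusted p = 3.77e-05) and by 2.25 in males (edgeR adjusted p = 2.11e-05). Cyp27a1, a sterol 27-hydroxylase that can also hydroxylate vitamin D, rose by 1.41 and 1.24. Srd5a1, which reduces testosterone, fell by 1.34 and 1.33, and Hsd3b7, an enzyme of bile acid synthesis, by 1.57 and 1.94.

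Of 15 glucocorticoid response genes 9 rose and 3 fell in females and 7 rose and 5 fell in males, with median log2 changes of 0.65 and 0.20. Zbtb16 rose by 3.19 in females (from 2.28 ± 0.537 to 18.9 ± 8.12 CPM, edgeR adjusted p = 0.000117) and by 2.12 in males (from 1.47 ± 0.472 to 6.0 ± 2.59 CPM, edgeR adjusted p = 0.00168). Lcn2, which is also a neutrophil granule gene, rose by 1.93 and 3.07. Pdk4, a kinase that restrains glucose oxidation, fell by 3.03 and 3.16, and Errfi1, an inhibitor of EGF receptor signalling, by 1.43 and 2.35. Fkbp5, a chaperone of the glucocorticoid receptor chosen after its values were seen, rose by 0.73 in females (SE 0.198, edgeR adjusted p = 0.0127). The call was lost without female 2-week replicate 1 (0.67, edgeR adjusted p = 0.0577) or 3 (0.52, edgeR adjusted p = 0.0594). In males Fkbp5 was at -0.32 (SE 0.254, edgeR adjusted p = 0.308), and the interaction was -1.05 (edgeR adjusted p = 0.283). Without male 65-week replicate 3 it fell by 0.67 with age in males (edgeR adjusted p = 0.0090). Between the sexes at 65 weeks Fkbp5 was at -0.95 in males (edgeR adjusted p = 0.272), and it was called there by DESeq2 (adjusted p = 0.0160) and without that library (-1.27, edgeR adjusted p = 0.0236). Fkbp5 was chosen for its values, so that its p-values are no independent support. Tsc22d3 of the same list, added for comparison, was at -0.38 there (edgeR adjusted p = 0.485) and was called in 0 of 13 alternatives. It rose with age in both sexes, by 1.54 to 1.79 in females and 1.10 to 1.38 in males over the alternatives.

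Of the oestrogen response genes, a list that holds Pgr and Greb1, 6 rose and 8 fell among 16 tested in females, and 4 rose and 9 fell among 15 in males. Pgr and Greb1 are among the 6 that rose in females, and both passed the filter on low counts only through the older females. Nos3, the endothelial nitric oxide synthase, fell by 5.44 and 5.47 on the log2 scale, from 26.1 ± 5.48 to 0.539 ± 0.221 CPM in females. Wnt4 fell by 3.15 and 3.73. Rara, a retinoic acid receptor, rose by 0.73 and 0.68, and Ctsd, a lysosomal protease, by 0.69 and 0.68. The call of Ctsd in males was lost without male 2-week replicate 3 (0.50, edgeR adjusted p = 0.0570) or 65-week replicate 1 (0.53, edgeR adjusted p = 0.0737).

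Of 7 tested vitamin D response genes, a list that holds Vdr itself, 6 fell and 1 rose in each sex, with median log2 changes of -3.32 in females and -3.90 in males. Bglap, which encodes osteocalcin of osteoblasts, fell by 7.57 and 7.04, from 61.7 ± 10.3 to 0.294 ± 0.209 CPM in females. Spp1 (osteopontin) fell by 5.72 and 4.05. The gene that rose was Atp2b1, a plasma membrane calcium pump, by 0.67 and 0.54. Osteoblast markers, which were 32.4-fold lower at 65 weeks, moved with this list, and their part in it was not tested. No gene of any of these lists passed in the edgeR fits of the sexes within an age or of the interaction, although Greb1 passed in the joint model given above. An unadjusted p under 0.05 between sexes at 65 weeks was reached by 1479 of 14287 genes. It was reached by 8 of 15 glucocorticoid, 5 of 16 oestrogen and 1 of 6 vitamin D response genes. At 2 weeks 2683 of 15081 genes reached it, and 4 of 15, 8 of 15 and 0 of 7 of these lists. Of the marker lists, 10 of 10 neutrophil markers reached it at 65 weeks, against 4 of 19 endothelial and 0 of 10 B cell markers. At 2 weeks 10 of 10 neutrophil, 4 of 20 endothelial and 8 of 10 B cell markers did. The median log2 change of neutrophil markers, male over female, was -0.54 at 2 weeks and 0.75 at 65 weeks. Neutrophil markers summed to 12100 to 16170 CPM in 65-week females and 17890 to 26330 CPM in males, lowest among males in replicate 3. The part of these cells in the sex differences was not tested.

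**Figure D4:**
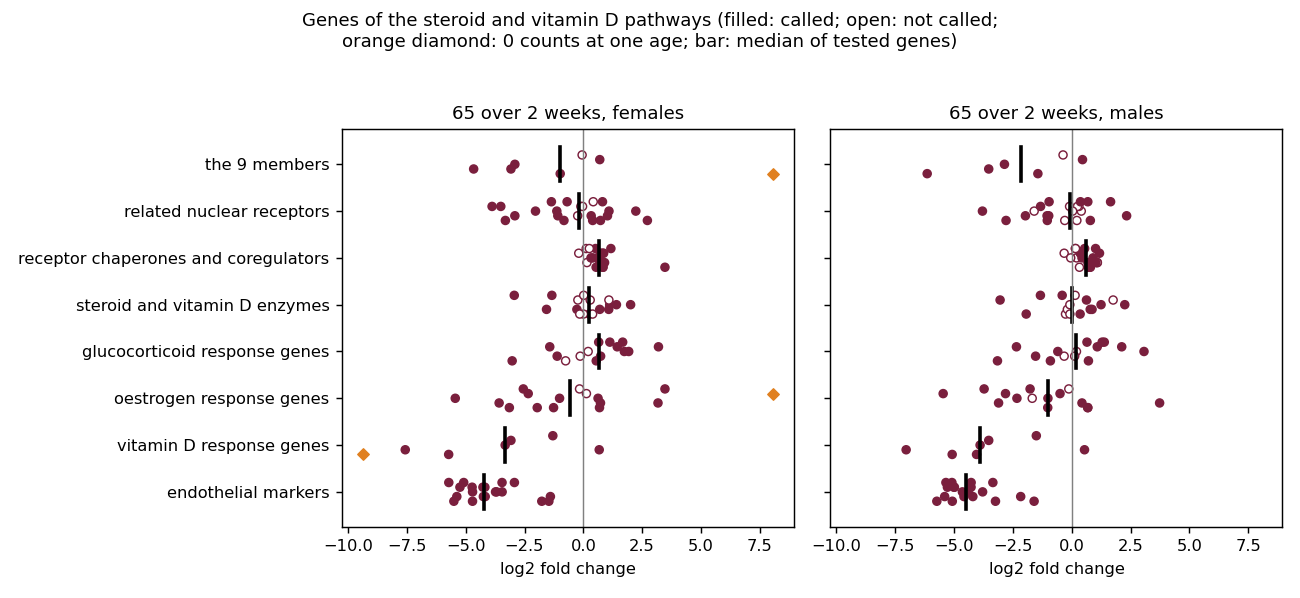
Log2 fold changes of 65 over 2 weeks in females (left) and males (right) for the members, the pathway lists and the endothelial markers. Each point is a tested gene, filled where edgeR called it, the bar is the median of the tested genes, and orange diamonds mark genes with 0 counts at one age, whose fitted value is not a bound. Coregulators lay at or above 0 with few exceptions, and vitamin D response genes and endothelial markers mostly below.

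Genes whose course over the 12 libraries was most like that of each receptor were found among 13530 autosomal protein-coding genes, by the root mean square difference of centred log2(CPM + 0.5). This measure is a description, and the libraries share the large difference between the ages. For Gper1, whose 65-week levels lie below the added 0.5, the offset shapes the course, so that Chst2, which went from 102 to 13.2 CPM in females, counts as near although its fall was smaller. Esr1 was nearest to S100a10 (0.131), Ddt (0.135) and Cdkn2b (0.138). Gper1 was nearest to Ajuba, Sectm1a and Chst2 (0.140 to 0.141), and Vdr to Adarb1 (0.149), Zfta (0.159) and Mmp16 (0.184). Cyp1b1 was nearest to Prrx1 (0.138), a transcription factor of limb mesenchyme, whose mean level was 39.7 and then 4.54 CPM in females, and 47.8 and then 5.65 CPM in males, and then to Pdk4 (0.196) and Cacna2d1 (0.200). Nr3c1 was nearest to Avl9 (0.068), Uhmk1 (0.074) and Zc3h10 (0.074), and Nr3c2 to Hyi (0.143), Abhd14b (0.145) and Exo5 (0.154).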

How the data were processed

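The deposited file holds counts per gene for the 12 libraries, made by the authors and not normalised. The study's methods name STAR and featureCounts on GRCm39, whereas the submitters' processing notes name TopHat2, HTSeq and mm9; this was not resolved, and strand use, annotation release and treatment of multiply mapped reads are not stated. The kit was for total RNA, while the molecule label says polyadenylated RNA. Of the Ensembl IDs 31052 were in GENCODE M39 (GRCm39), carrying 99.287% of the counts, and 6568 were not. Coordinates and exon lengths come from that annotation. RefSeq promoter windows were matched by symbol for 8 of the 9 members.

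Libraries were grouped by the sex and age of their labels. The quasi-likelihood F test of edgeR 4.0.16 under R 4.3.3 was used after TMM scaling, for genes kept by filterByExpr (minimum count 10), with Benjamini-Hochberg adjustment over all of them and a threshold of 0.05. Ages were compared within the 6 libraries of a sex, sexes within the 6 of an age, and the interaction was fitted on 12. No covariate was used. Standard errors and 95% intervals were derived from the F statistic. The procedure was tested on simulated counts. A group at 0 was set to a floor of 3 counts per library.

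The members, lists and tests were chosen with earlier results of these data known. Named besides the members were, per list and direction, up to 2 genes with the largest mean change among those called in both sexes between ages at an average log2 CPM of at least 1; others are marked in the text. The result of 1 gene that met this rule is not reported here. Of 251 list entries 1 had no match. Alternatives were DESeq2 1.42.0, RLE scaling, library totals, no filter, at least 1 CPM in 3 libraries, a joint model of all 12 libraries, the replicate number as a block, and the omission of each library.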

Additional observations from a re-analysis of the deposited data

How the results depend on the processing

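Of 1119 alternative values of single named genes 1095 kept their direction and side of the threshold, and 760 of 765 kept an age call. The number of genes called between sexes at 2 weeks (5) was 417 with DESeq2 and 8 with all libraries in 1 model, and 5 to 11 without single libraries, the highest without female replicate 2. At 65 weeks (6) it was 363 with DESeq2, 10 with library totals, 105 with no filter and 254 with all libraries in 1 model. Without single libraries it was 5 to 830, the highest without male replicate 3. In the interaction (1 gene) it was 353 with DESeq2, 7 with no filter and 0 to 750 without single libraries, again highest without that male library, when 1 member (Esr1) was called and otherwise 0. Replicate numbers did not pair the libraries, since same-numbered libraries correlated at -0.355 to 0.14 in their deviations. With the replicate block 0 genes were called in the interaction, Nr3c2 between sexes at 65 weeks turned to -0.0219, and no member's call changed. Estimates that turned in sign without single libraries, none called, were Vdr between sexes at 2 weeks (-0.149 to 0.0708), Nr3c2 between sexes at 65 weeks (-0.23 to 0.29) and between ages in females (-0.315 to 0.0768), and the interaction of Cyp1b1 (-0.19 to 0.33). Pgr in males, too low to be tested between ages, was called by DESeq2 (adjusted p = 0.00176), with no filter (edgeR adjusted p = 0.0174) and with all libraries in 1 model (edgeR adjusted p = 0.00956). Male 65-week replicate 3 held 25 of the 30 Pgr counts of its group, and none of these settings was run without it. Without that library the mean lay below the floor, so that these calls are no support for a rise in males. Library totals in place of TMM moved the median of all genes between ages to -0.13 in females and -0.11 in males and the share of higher among called genes from 50.6% to 40.2% and from 48.7% to 40.4%. No member's age call or direction changed under that scaling. Plasma cell and monocyte lists overlapped between ages without their top gene, which left 10 of 12 separated lists. The causes were not tested. The 65-week libraries held fewer counts, and the lowest transcripts (Esr2, Cyp19a1, and Pgr and Greb1 in males) are limited by depth.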
